A study of Mus musculus with 10 samples.

Results

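The clustered protocadherin genes are 57 protein-coding genes of mouse chromosome 18, taken by symbol from a RefSeq table of GRCm38.p6 (mm10) that lists 21900 protein-coding genes. They form 3 tandem arrays. The alpha array has 14 members from Pcdha1 to Pcdhac2 (chromosome 18, 36930285 to 37188897), the beta array 22 from Pcdhb1 to Pcdhb22 (37264998 to 37521419) and the gamma array 21 from Pcdhga1 to Pcdhgc5 (37661775 to 37841873). Each array was extended by 50 kb on both sides, which gives 971 kb once the overlap of the alpha and beta flanks is counted once. Within it lay 58 of the 25667 summits that the authors listed for Dlx2, a summit being the point of highest signal in a called region. This homeodomain protein is a transcription factor that drives the GABAergic fate in the developing forebrain. The read-through genes Gm37013, Gm38666 and Gm38667, which run from the alpha into the gamma array, and the pseudogene Pcdhgb8 were not counted as members.

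Dlx2-bound DNA was collected by chromatin immunoprecipitation and sequencing (ChIP-seq) from mouse brain tissue, with 1 library for each of 5 groups. At postnatal day 3 (P3) these were the cortex and the olfactory bulb. At embryonic day 16 (E16) they were the basal ganglia, the cortex and the olfactory bulb. The other 5 of the 10 samples are input DNA and were not analysed here. No strain, genotype or number of animals is named in the labels. With 1 library a group there is no replicate and no p-value between tissues or ages, and because each library is a mixture of cells, fewer bound cells and weaker binding per cell cannot be told apart.

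Protocadherins of these arrays are adhesion proteins of the cadherin family that give each neuron a surface identity and let its branches recognise each other. In the alpha and gamma arrays every gene begins with its own large variable exon behind its own promoter, which is spliced to a set of constant exons shared by the whole array. Beta genes have no shared exons. Most isoforms are switched on in a random few per neuron through contacts between promoters and distant enhancers, whereas the C-type isoforms at the end of the alpha and gamma arrays (Pcdhac1, Pcdhac2, Pcdhgc3, Pcdhgc4 and Pcdhgc5) are expressed more uniformly. Loss of the gamma genes is known to increase developmental death of cortical interneurons.

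The gene table shows this layout. All 21 gamma members end within 10 bp of each other and all 14 alpha members within 1240 bp, while their starts are spaced by a median of 5.37 kb in the gamma array and 7.44 kb in the alpha array. Gene bodies therefore nest, and a single summit near the shared end lies in every member of its array. For this reason a summit was assigned by its distance to the member starts, taken as the low-coordinate end. Beta genes are 2340 to 5271 bp long and spaced by a median of 7.84 kb.

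Dlx2 regions lay mainly in the gamma array, in the 2 longest lists, and in the beta array there were none. The P3 cortex list had 2 summits in the extended arrays (exact Poisson 95% interval 0.242 to 7.22) and the P3 olfactory bulb list 0, for which a floor of 3 counts is allowed. The E16 basal ganglia list had 31 (21.1 to 44.0), the E16 cortex list 24 (15.4 to 35.7) and the E16 olfactory bulb list 1 (0.0253 to 5.57). Where no age is given below, the cortex is that of E16. These counts come from lists of 2139, 734, 14795, 6333 and 1666 regions in the same order. The intervals cover counting error only, and since the read depth is unknown, a gene without a region is below the authors' threshold and not shown to be unbound.

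**Figure D1:**
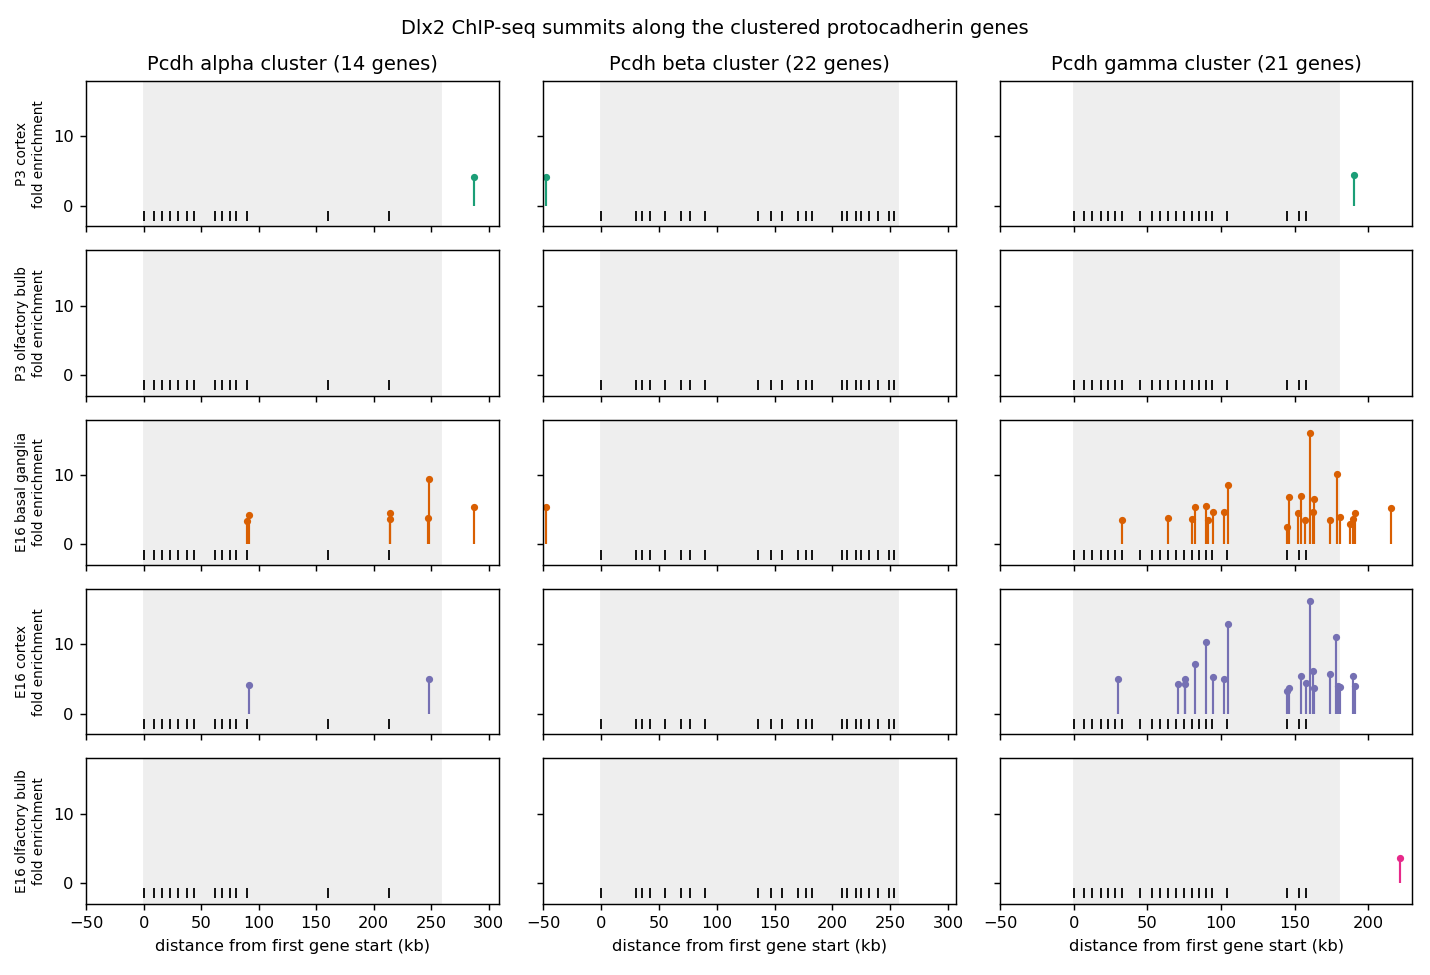
Fold enrichment of every Dlx2 summit (y axis) by its distance in kb from the first gene start of the alpha, beta and gamma arrays (x axis), with 1 row per list. Grey marks the array, white its 50 kb flanks and black ticks the member starts. The 19 gamma summits of the E16 basal ganglia and the 19 of the E16 cortex crowd toward the right end of that array, and the beta array is empty. The summit about 29 kb beyond the alpha end is drawn in both the alpha and the beta panel.

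By array, the E16 basal ganglia list held 19 gamma summits and 6 alpha summits, and the E16 cortex list 19 and 2. In the 22 beta genes and the spaces between them no summit was listed in any of the 5 lists, for which the floor of 3 counts is 11.7 per Mb. The two-sided exact Poisson 95% interval of that 0, drawn in the plot of densities, ends at 14.4 per Mb. At the density of the rest of the genome, that stretch would hold 1.45 summits in the E16 basal ganglia list and 0.619 in the E16 cortex list, so a lack of beta summits was not detectable at these list lengths. Beta genes are similar to each other in sequence. The reads were single-ended and 50 nucleotides long, and the treatment of reads with several matches is not given in the sources used here. Values at near-identical stretches of any of the 3 arrays are therefore uncertain.

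The gamma array was far denser in summits than the rest of the genome. It held 105 summits per Mb in the E16 basal ganglia list and as many in that of the E16 cortex (63.5 to 165). The rest of the genome held 5.63 per Mb in the basal ganglia list and 2.41 in the cortex list. The 50 kb flanks of the arrays lay in between. They held 21.7 per Mb (7.97 to 47.3) in the basal ganglia and 10.9 (2.24 to 31.8) in the cortex. Their ratio to the rest of the genome was 3.85 (1.41 to 8.39) in the basal ganglia. In the cortex the flank ratio was 4.50 (0.928 to 13.2), an interval that included 1. For the 3 extended arrays together the ratio to the rest of the genome was 5.67 (3.85 to 8.05) in the basal ganglia. In the cortex that ratio was 10.3 (6.58 to 15.3). The gamma array alone gave a ratio of 18.7 (11.3 to 29.2) in the basal ganglia and 43.8 (26.4 to 68.4) in the cortex. Against the bodies of protein-coding genes alone it was 11.6 (6.99 to 18.1) in the basal ganglia and 20.1 (12.1 to 31.3) in the cortex. Basal ganglia regions covered 13.6% of the gamma array and 0.397% of the genome outside the extended arrays. Cortex regions covered 9.81% of it and 0.224% of the genome outside. The alpha array had 23.2 summits per Mb in the basal ganglia (8.51 to 50.5), a ratio of 4.12 (1.51 to 8.96). In the cortex it had 7.73 per Mb (0.937 to 27.9), where the interval of the ratio included 1 (0.388 to 11.6). Against gene bodies the alpha ratio was 2.55 (0.935 to 5.55) in the basal ganglia and 1.47 (0.178 to 5.30) in the cortex. Both of these intervals included 1. Regions of an array can stand close together, so summits are not independent of each other, which the Poisson intervals leave out.

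Other long genes reached the same count. Pcdhga1 spans the whole gamma array of 180 kb. Of 21840 other protein-coding genes, 23 held 19 or more basal ganglia summits and 14 held 19 or more cortex summits. Among the 20721 genes that are no longer than Pcdhga1, 7 did so in the basal ganglia, led by the zinc finger gene Bcl11b with 36, and 8 in the cortex, led by the zinc finger gene Zeb2 with 30. A count of 19 was thus not unique to the gamma array. The 2 lists with summits inside the arrays were also the longest and share 1 pattern of peak names, which the other 3 lists lack, so tissue, list length and batch of processing cannot be told apart.

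**Figure D2:**
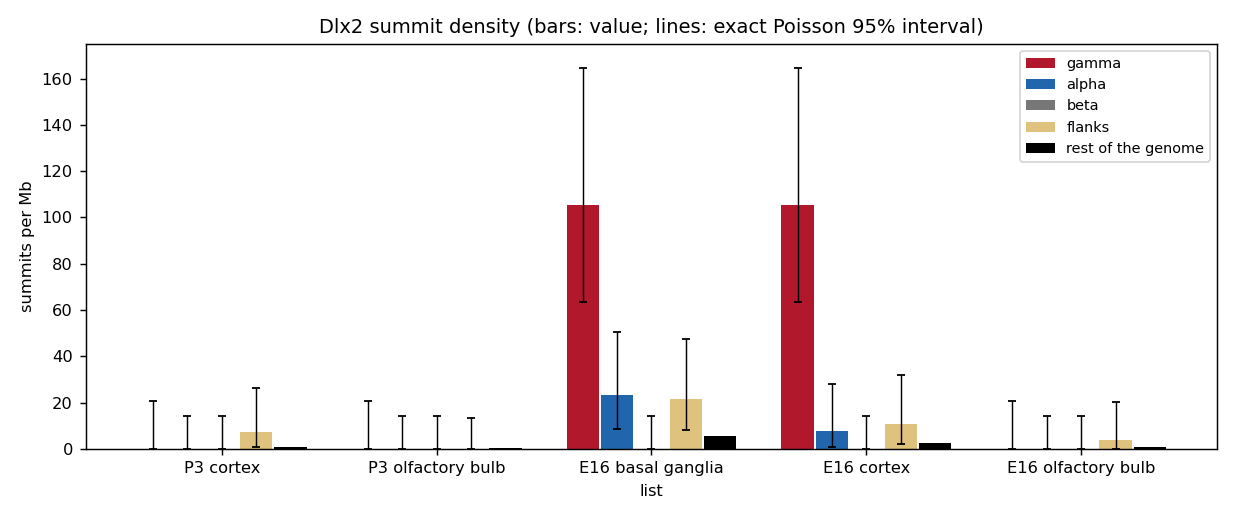
Summits per Mb (y axis) in the gamma, alpha and beta arrays, in the flanks and in the rest of the genome, for each of the 5 lists (x axis), with exact Poisson 95% intervals as lines. The gamma bars of the basal ganglia and cortex at E16 stand at 105 per Mb, above the 5.63 and 2.41 per Mb of the rest of the genome in the basal ganglia and cortex. The beta bars are at 0 in every list.

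Members with a start within 1 kb of a summit were counted next. There were 0 of 57 in the P3 cortex, P3 bulb and E16 bulb lists, for which the floor of 3 counts is 5.26% in each and the exact Clopper-Pearson 95% interval ends at 6.27%. In the E16 basal ganglia there were 10 (17.5%, exact Clopper-Pearson 95% interval 8.75 to 29.9), and in the E16 cortex 5 (8.77%, 2.91 to 19.3). Among 17492 protein-coding genes outside chromosome 18 with a RefSeq promoter entry, the same rule held for 1.27%, 0.274% and 0.377% in the P3 cortex, P3 bulb and E16 bulb, and for 4.46% in the E16 basal ganglia and 1.49% in the E16 cortex. A count of 0 in the 3 shorter lists is near those shares. The gap between the basal ganglia and the cortex rests on the 1 kb distance, since 5 members had a summit within 0.5 kb in each of the pair and 11 within 2 kb. With regions of −log10 q of at least 5 alone, the 1 kb counts were 5 in the basal ganglia and 4 in the cortex. Neighbouring members share regions and a locus, so the members are not independent of each other.

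A summit 0 to 5 kb downstream of the start and before the next start was listed for 11 of 57 members in the basal ganglia and 11 in the cortex. For the other genes, whose 5 kb were not cut at a next start, the shares were 6.58% and 4.41%. Such a summit was listed for 0 members in the P3 cortex, P3 bulb and E16 bulb, where the other genes had 0.589%, 0.0972% and 0.263%. The basal ganglia and cortex had 8 of these members in common, which are Pcdha12, Pcdhgb6, Pcdhgb7, Pcdhga11, Pcdhga12, Pcdhgc3, Pcdhgc4 and Pcdhgc5. The 5 kb distance was chosen after the values were seen.

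Within the gamma array most summits lay between the start of Pcdhgb6, the first of the last 8 members, and the shared end. The 13 members from Pcdhga1 to Pcdhga9 begin in the first 80.3 kb, where 2 basal ganglia summits and 4 cortex summits lay. From the start of Pcdhgb6 to the shared end, over 99.8 kb, there were 17 basal ganglia summits and 15 cortex summits. Some of these lay well beyond the Pcdhgc5 start, in a stretch that is in the bodies of all 21 members. Between their own start and the next, 9 of the 21 members had no summit in either of these lists. They are Pcdhga1, Pcdhga2, Pcdhga3, Pcdhgb1, Pcdhga4, Pcdhga6, Pcdhga7, Pcdhgb4 and Pcdhga10. The division at Pcdhgb6 was chosen after the values were seen.

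Pcdhgc5, the C-type isoform next to the constant exons, carried the strongest region of the arrays in the basal ganglia and in the cortex. In the basal ganglia its region spanned 4262 bp (37819202 to 37823463) with a fold enrichment of 16.02, which is the deposited MACS2 ratio of summit signal to local background. It ranked 374 of 14795 by the authors' −log10 q, the significance of a region after adjustment for many tests, which was 69.9. In the cortex a region of 2169 bp (37821183 to 37823351) had a fold enrichment of 16.2 and ranked 244 of 6333, with a −log10 q of 59.2. The summits lay 3.06 kb downstream of the Pcdhgc5 start in the basal ganglia and 2.68 kb in the cortex. A further summit followed at 4.58 kb in the basal ganglia (fold enrichment 4.70) and at 4.61 kb in the cortex (6.17). Nearer the start, a weak basal ganglia summit lay 743 bp upstream (3.52) and a cortex summit 209 bp downstream (4.48).

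The other C-type genes of the gamma array had regions along their first kilobases too. Pcdhgc4, the isoform known to be needed for the survival of many neurons, had a region of 3305 bp in the basal ganglia (fold enrichment 7.05, summit 1.03 kb downstream of the start, −log10 q 23.5). In the cortex its region measured 1779 bp (5.48, 1.11 kb downstream, −log10 q 14.4). A further basal ganglia summit lay 677 bp upstream of the Pcdhgc4 start (4.49). Pcdhgc3, which is known to shape dendrites, had basal ganglia summits 31 bp upstream (2.53) and 1.33 kb downstream (6.88, −log10 q 17.97), and cortex summits 182 bp (3.35) and 1.31 kb downstream (3.77).

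Among the other gamma isoforms, Pcdhga12 and Pcdhgb7 led. The Pcdhga12 region covered nearly the same stretch in both lists, 37765765 to 37768660 (2896 bp) in the basal ganglia and 37765778 to 37768635 (2858 bp) in the cortex. Its fold enrichment was 8.58 in the basal ganglia, with rank 1855, and 13.0 in the cortex, with rank 394. The summit lay 1.30 kb downstream of the start in the basal ganglia list and 1.21 kb in that of the cortex. At Pcdhgb7 the summit lay 334 bp downstream in the basal ganglia (5.56, −log10 q 20.9) and 144 bp downstream in the cortex (10.4, −log10 q 28.7). The main Pcdhgb6 summit lay 1.78 kb downstream in the basal ganglia (5.41, −log10 q 11.2) and 1.81 kb in the cortex (7.23, −log10 q 15.9). Weaker basal ganglia summits lay 371 bp downstream of the Pcdhgb6 start (3.71) and 1.55 kb downstream of the Pcdhgb7 start (3.52). At Pcdhga11 a weaker region had its summit 549 bp downstream of the start in the basal ganglia (4.60), and its counterpart in the cortex had it at 298 bp (5.37).

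Some gamma members had a region in the basal ganglia or in the cortex list but not in both. In the basal ganglia, Pcdhga5 (3.52, 530 bp downstream) and Pcdhga8 (3.78, 352 bp) had one. In the cortex, Pcdhgb2 (5.00, 1.94 kb), Pcdhgb5 (4.35, 1.68 kb) and Pcdhga9 (4.27 and 5.00, 291 and 781 bp) had one. All were below the median fold enrichment of their list, which was 4.55 in the basal ganglia and 5.02 in the cortex, so they lie in the weaker part of those lists. A region upstream of Pcdhga12 in both lists had its summit 1.89 kb downstream of the start of Pcdhgb8 in the basal ganglia and 1.86 kb in the cortex. Pcdhgb8 is a transcribed pseudogene of the same array and no member.

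**Figure D3:**
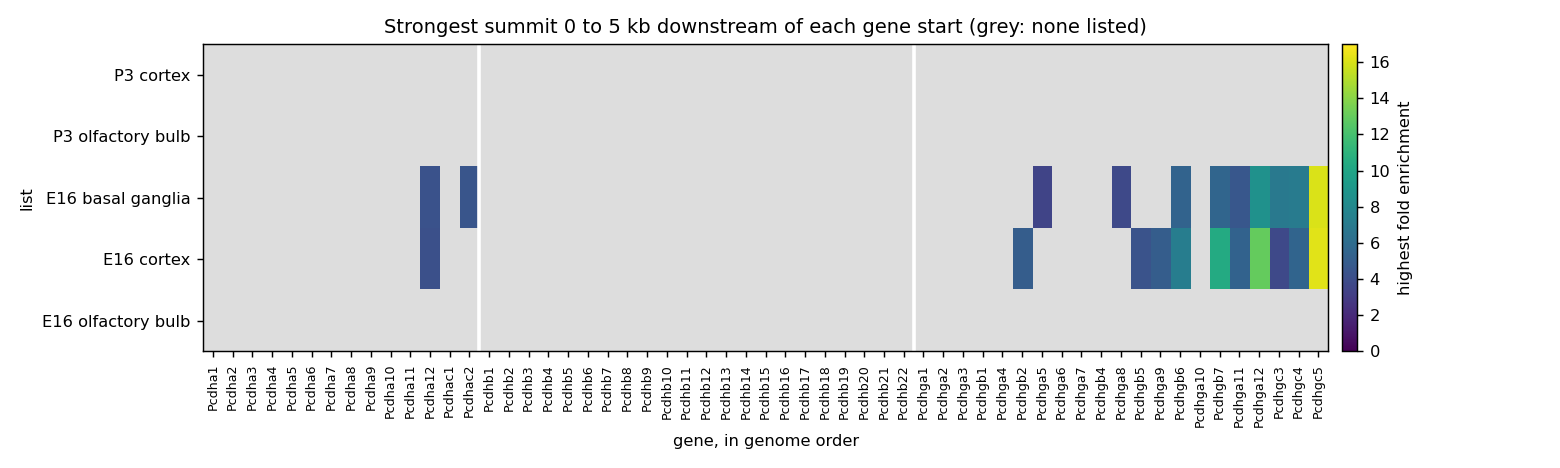
Highest fold enrichment of a summit 0 to 5 kb downstream of each of the 57 gene starts (colour), with genes in genome order on the x axis and lists on the y axis. Grey means that no summit was listed. Colour appears in 2 rows, those of the basal ganglia and the cortex at E16, with Pcdhgc5 highest in both at 16.02 and 16.2.

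The alpha array showed regions at 2 of its 14 starts. Pcdha12, the last of the alternate alpha isoforms, had basal ganglia summits 10 bp (3.32) and 1.42 kb downstream (4.30) and a cortex summit 1.27 kb downstream (4.18). Pcdhac2, a C-type isoform needed by serotonergic axons to spread apart, had basal ganglia summits 614 bp (4.48) and 1.10 kb downstream (3.62) and none within 5 kb in the cortex list. None was listed at Pcdha1 to Pcdha11 or at Pcdhac1.

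The strongest alpha region lay away from every start, between the Pcdhac2 start and the alpha end. It covered 37178312 to 37179043 in the basal ganglia (fold enrichment 9.45, −log10 q 38.5, rank 1086) and 37178233 to 37178718 in the cortex (5.03, −log10 q 10.4, rank 2308). Its summit was 10.3 kb before the alpha end in the basal ganglia and 10.5 kb in the cortex. A weaker basal ganglia region stood beside it (3.83, 11.03 kb before the end). The gamma array had a region nearer to its shared end. Its summit lay 1.38 kb before the end in the basal ganglia (10.1, −log10 q 33.9, 2562 bp wide) and 1.74 kb in the cortex (11.1, −log10 q 32.1, 1609 bp wide). A cortex region also lay 0.266 kb before that end (4.06, −log10 q 9.29). Between Pcdhgc5 and that end lay further summits, at 5.65 kb (6.50, −log10 q 22.2) and 16.6 kb (3.53) from the Pcdhgc5 start in the basal ganglia, and at 5.64 kb (3.66) and 16.1 kb (5.67, −log10 q 11.1) in the cortex. The gene table gives no exons, so none of these is placed in an exon or intron here.

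Of the summits within 5 kb of a member start, 16 of 20 in the basal ganglia (80.0%, 56.3 to 94.3) and 15 of 16 in the cortex (93.8%, 69.8 to 99.8) were downstream of the nearest start. Among the other genes the shares were 66.1% of 2186 summits in the basal ganglia and 74.0% of 1322 in the cortex, which lie within those intervals. The downstream summits lay at a median of 1.06 kb in the basal ganglia and 1.21 kb in the cortex.

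Coverage by regions was also taken around the starts. Of the 21 gamma starts, 9 (42.9%) were covered 0.4 kb downstream in the basal ganglia list and 5 (23.8%) at the start itself. Upstream in that list, 4 (19.0%) were covered at 0.1 kb, 2 (9.52%) at 0.5 kb, 0 at 1 kb and 2 (9.52%) at 2 kb. In the cortex list 7 (33.3%) were covered 1.7 kb downstream, 1 (4.76%) at the start and 0 at 1 kb upstream. The other genes reached at most 2.29% in the basal ganglia, at 0.1 kb upstream, and 1.57% in the cortex, at 2.2 kb downstream. In the basal ganglia list, regions covered 11870 bp of the 2 kb stretches downstream of the 21 gamma starts and 3194 bp of those upstream. In the cortex list they covered 8637 bp downstream and 469 bp upstream. The other genes leaned the same way at 1 kb. There 1.98% were covered downstream and 0.943% upstream in the basal ganglia, and 1.27% and 0.652% in the cortex.

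**Figure D4:**
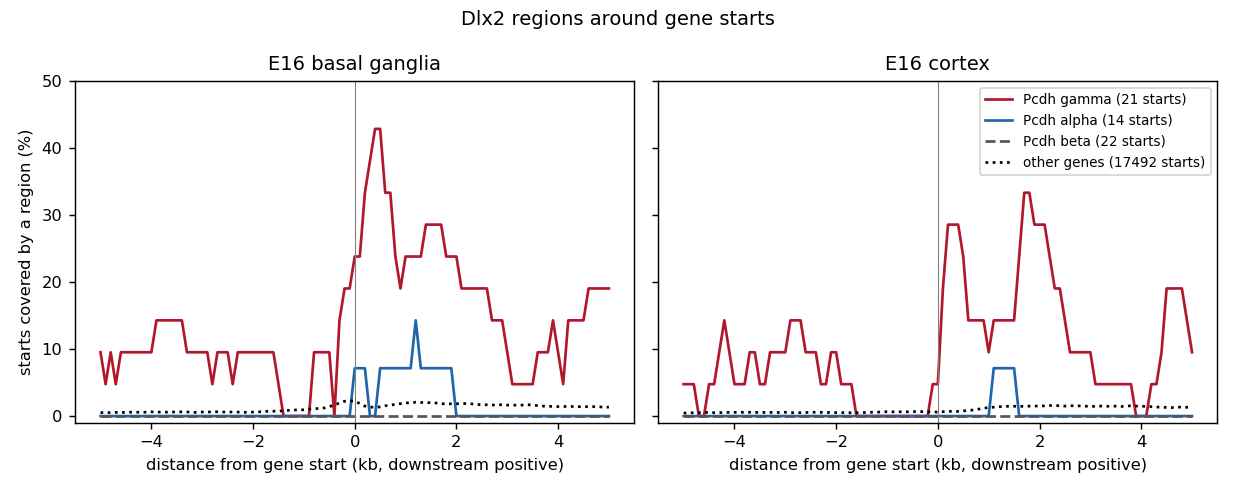
Share of gene starts covered by a listed region (y axis, %) by distance from the start in kb (x axis, downstream positive), for the gamma, alpha and beta members and the 17492 other genes. The gamma curve reaches 42.9% at 0.4 kb in the E16 basal ganglia and 33.3% at 1.7 kb in the E16 cortex, and the other genes stay at or below 2.29%. Rises toward the left and right edges can belong to the neighbouring member.

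Many regions of the arrays were listed both in the basal ganglia and in the cortex at E16. Of the 31 basal ganglia regions, 18 overlapped a cortex region by at least 1 bp (58.1%, 39.1 to 75.5), against 26.3% of the regions outside. Of the 24 cortex regions, 20 overlapped a basal ganglia region (83.3%, 62.6 to 95.3), against 61.4% outside. Neighbouring regions of a locus are not independent, which these intervals leave out. Overlap also becomes more likely with coverage. Regions covered 3.28% of the extended arrays in the basal ganglia and 2.09% in the cortex, against 0.397% and 0.224% of the genome outside. The part of coverage in these shares of overlap was not tested. The overlaps made 21 pairs, and in 11 of them the summits stood within 200 bp of each other. Regions wider than 1 kb numbered 8 of 31 in the basal ganglia and 5 of 24 in the cortex, all of them in the gamma array. Over the whole lists, such wide regions made up 13.8% in the basal ganglia and 25.2% in the cortex. The median fold enrichment in the extended arrays was 4.48 in the basal ganglia and 4.997 in the cortex, beside list medians of 4.55 and 5.02. Above the median of its list in fold enrichment were 14 of the 31 basal ganglia regions and 11 of the 24 cortex regions.

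Outside the members, the flanks held the few regions of the other lists. In the P3 cortex a region of 368 bp (37217364 to 37217731, fold enrichment 4.10) had its summit 28.6 kb beyond the alpha end, on the beta side. It overlapped a basal ganglia region of 601 bp (5.44, −log10 q 15.7) with its summit 28.9 kb beyond that end. The alpha enhancer HS5-1 is known to lie downstream of the alpha constant exons, but its position was not used here. The other P3 cortex region lay 10.4 kb beyond the gamma end within Diaph1, a formin gene of actin assembly (4.43, −log10 q 9.14, rank 818 of 2139). It overlapped a basal ganglia region (4.48) that in turn overlapped an E16 cortex region (4.03), and the P3 and E16 cortex regions themselves did not overlap.

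Diaph1 held the other flank summits as well. In the basal ganglia they lay 7.87, 9.55 and 35.6 kb beyond the gamma end (2.96, 3.73 and 5.28), and in the E16 cortex at 9.42 kb (5.43). The single E16 bulb region lay 41.7 kb beyond that end (3.59, rank 1414 of 1666) and met no region of another list. Between the gamma end and Diaph1 a summit lay 0.755 kb from the end in the basal ganglia (3.94) and 0.938 kb in the cortex (3.85). No summit was listed at Taf7 and Slc25a2, the protein-coding genes between the beta and gamma arrays. Widening the flanks to 100 kb added no summit in any of the 5 lists.

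Across age, the cortex differed in number. The arrays and flanks held 2 P3 cortex summits, against 24 E16 cortex summits. The lists differ in length and in the processing that the peak names record. At the density of the rest of the genome 0.786 summits would be listed at P3 and 2.34 at E16. The density ratio of the extended arrays was 2.54 (0.308 to 9.19) at P3 and 10.3 (6.58 to 15.3) at E16. These intervals overlap. With the 734 strongest regions of each list the counts were 0 at P3 and 4 at E16. Age and library cannot be told apart, and no test was made. The 2 olfactory bulb lists had 0 summits at P3 and 1 at E16, where the rest-of-genome density gives 0.272 and 0.619, so a difference from the rest of the genome was not detectable at these list lengths.

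The protocadherins outside the arrays were occupied in part, counting a summit within the gene body extended by 10 kb. Of 12 such genes there were 2 in the P3 cortex, 1 in the P3 bulb, 8 in the E16 basal ganglia, 2 in the E16 cortex and 2 in the E16 bulb. All protein-coding genes gave 6.08%, 2.03%, 26.3%, 17.0% and 3.58% by that rule, in the same order. Pcdh20 (3.61) and Pcdh7 (3.44) were those of the P3 cortex and Pcdh9 (5.49) that of the P3 bulb. The strongest in the basal ganglia were Pcdh9 (14.5), Pcdh1 (10.7) and Pcdh8 (7.78), and in the E16 cortex Pcdh8 (10.8) and Pcdh1 (6.51). The E16 bulb had Pcdh9 (4.03) and Pcdh7 (3.89). By the same rule 35 of the 57 array members, all alpha and gamma genes, were occupied in the basal ganglia and in the E16 cortex, since the bodies nest. In the P3 cortex, P3 bulb and E16 bulb lists 0 members were. Long genes meet the gene-body rule more easily, and the shares over all genes are not matched for length, here and for the gene lists below.

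Genes that act with these proteins were counted by the same gene-body rule, by which 6.08% of all protein-coding genes were occupied in the P3 cortex, 26.3% in the basal ganglia and 17.0% in the E16 cortex. Of 19 regulators of their transcription and of genome folding, 1 was occupied in the P3 cortex (Stag1, a cohesin subunit gene, 3.75), 10 in the basal ganglia, 2 in the E16 cortex and 0 in either bulb list. The strongest in the basal ganglia were Ehmt2 (6.06) and Ehmt1 (4.70), which encode histone methyltransferases, and Mau2 and Stag2 (4.30 each). In the cortex they were Ehmt2 (7.38) and Wiz (6.94). Ctcf, the insulator protein gene whose product loops protocadherin promoters, had a weak basal ganglia region (2.90). Of 16 intracellular partners, 3 were occupied in the P3 cortex, 9 in the basal ganglia, 5 in the E16 cortex and 0 in either bulb list. They were led by Cyfip2 (22.9), Fyn (4.84) and Prkca (4.15) in the P3 cortex, by Marcks (40.5), Fyn (12.9) and Wasf2 (6.64) in the basal ganglia and by Marcks (37.5), Cyfip2 (8.89) and Wasf2 (7.65) in the E16 cortex.

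The tissue labels were set beside marker genes, although no expression was measured, again by the gene-body rule with its shares over all genes of 6.08% in the P3 cortex, 2.03% in the P3 bulb, 26.3% in the basal ganglia, 17.0% in the E16 cortex and 3.58% in the E16 bulb. Of 7 GABAergic marker genes, 4 were occupied in the P3 cortex, 4 in the P3 bulb, 7 in the E16 basal ganglia, 7 in the E16 cortex and 6 in the E16 bulb. Those of the P3 cortex were Dlx1, Dlx2, Dlx5 and Dlx6, without Gad1, Gad2 or Slc32a1. Those of the P3 bulb were Dlx5, Dlx6, Gad1 and Gad2. Neighbouring Dlx genes can be counted for the same region. Dlx1 and Dlx2 had the same highest fold enrichment in the P3 cortex (6.68), as did Dlx5 and Dlx6 in the P3 bulb (13.4). Of 6 glutamatergic marker genes, 4 were occupied in the basal ganglia and 6 in the E16 cortex, and 0 in the P3 cortex and both bulb lists. The same 2 lists are those with gamma summits, and the part of these markers in that result was not tested. Of the 17 markers of oligodendrocytes, astrocytes, microglia, endothelium, liver and muscle, 4 were occupied in the basal ganglia, which is near the share over all genes there, 1 in the E16 bulb and 0 in the other lists.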

How the data were processed

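For each of the 5 Dlx2 libraries the authors deposited a list of regions in the narrowPeak layout. Per the submitters' processing notes, the tools were Trimmomatic, Bowtie2, SAMtools and MACS2 (no version stated) and the build mm10. Per the labels' protocols, tissue was fixed in 1.5% formaldehyde and sheared to 300 to 1000 bp, and reads were single-ended, 50 nucleotides long. The sources used here do not give the control, the threshold, the read depth or the handling of reads with several matches. Fold enrichment (a ratio), −log10 of p and of q and the score are the deposited values of each region, as MACS2 writes them. The score was not used. Fold and q ranked regions within a list only. Deposited peak names carry a mark of removed duplicates in every list but that of the P3 cortex.

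Summits were converted to positions counted from 1 and assigned with Python 3.11.15, pandas 2.3.3 and scipy 1.17.1. Density used chromosomes 1 to 19 and X between their outermost genes. Other genes were taken at their outermost RefSeq promoter start (GRCm38.p6). The counting was tested on simulated summits. The members, the gene lists and the named places were chosen with earlier results of these data known. Named were every member nearest a summit inside an array, at most the 10 regions highest in −log10 q of the E16 basal ganglia and cortex lists in full, every non-member gene at a flank summit, and up to 3 genes with the highest fold enrichment per other list. Ctcf was added after its value was seen. No test was made between groups, since each has 1 library. No sequence of the members was used here.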

Additional observations from a re-analysis of the deposited data

How the results depend on the processing

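Counts of summits in the extended arrays stayed within 1.5 times under most settings. Without flanks, and with flanks of 10 kb, the P3 cortex and the E16 bulb each had 0. With the 734 strongest regions of each list the counts were 0 in the P3 cortex, 1 in the E16 basal ganglia, 4 in the E16 cortex and 0 in the E16 bulb. Members near a summit in the basal ganglia numbered 5 within 0.5 kb, 5 with −log10 q of at least 5, 0 among the 734 strongest regions and 35 by gene body extended by 10 kb. In the E16 cortex they numbered 11 within 2 kb, 13 within 5 kb, 11 in the 5 kb downstream (chosen after seeing the data), 1 among the 734 strongest regions and 35 by gene body. The gene-body count follows from the nesting. Merged regions in 2 or more lists numbered 18, and 11 when summits had to lie within 200 bp or when regions wider than 1 kb were left out. The density ratio of the extended arrays was 2.54 in the P3 cortex, 5.67 in the basal ganglia, 10.3 in the E16 cortex and 1.62 in the E16 bulb. It was 0 in the P3 cortex and the E16 bulb without flanks. Against protein-coding gene bodies it was 3.51 in the basal ganglia and 4.70 in the E16 cortex. The cause of the other changes was not tested. No paired analysis was possible because each group has 1 library. Depth is unknown and limits what the shorter lists can show.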
